A study of Rattus norvegicus with 12 samples.

Results

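The 200 genes described here are the long non-coding RNA genes with the highest read counts in the bladders of rats after spinal cord injury. They were taken from 9298 genes that the deposited non-coding table classes as lncRNA, lincRNA, antisense RNA, sense intronic or processed transcript. For each gene the transcript with the highest summed count over 12 libraries was kept, 3 genes (H19, Meg3 and Xist) were left out, and the 200 genes with the highest sums were taken. The ranking used all groups together and no difference between them. Together the members held 85.4% of the counts of all ranked genes. The last 3 inside the boundary, LOC102549521, LOC100911534 and LOC108352166, had summed counts of 1477, 1468 and 1452. The first 3 outside it, LOC103694346, LOC102557338 and LOC108353174, had 1448, 1444 and 1443, and the boundary falls in a continuous run of values.

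Bladder RNA came from female Wistar rats aged 10 to 12 weeks, with 3 libraries each at 7, 14 and 28 days after the cord had been cut through completely at the thoracic level named T10, and 3 libraries from uninjured controls. The controls are labelled as normal rats, with no mention of a sham operation, so surgery and injury are not separated. The sources used here do not say whether each library is 1 rat or a pool, so p-values measure the spread between libraries only. Total RNA was depleted of ribosomal RNA and read as single ends of 50 bases, and each library held 26275314 to 30747936 counts over genes. Values are CPM (counts after scaling each library to 1000000 counts over genes), n = 3 per group. Changes are log2 fold changes ± SE from edgeR's quasi-likelihood test, with p-values adjusted by the Benjamini-Hochberg method over 3911 transcripts tested, and a member is said to rise or fall only at an adjusted p under 0.05.

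A long non-coding RNA is a transcript with no recognised open reading frame for a protein. Some stay in the nucleus and act on chromatin, splicing or neighbouring genes, some bind microRNAs or proteins in the cytoplasm, and others are the precursors from which small nucleolar RNAs or microRNAs are cut. Many have no known function, and an RNA counted at such a locus can also be a retained intron, an extended end or a non-coding isoform of a coding gene. The bladder wall holds urothelium, smooth muscle, fibroblasts, vessels, nerves and immune cells. In bulk tissue, fewer cells of a type and less RNA per cell cannot be told apart.

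The authors' annotation classes 160 members as lncRNA, 21 as processed transcript, 18 as lincRNA and 1 as antisense RNA. An uncharacterised LOC symbol names 149 of them, and 40 have only an Ensembl identifier. RefSeq's assembly GRCr8 matched 77 members by transcript identifier, Ensembl identifier, symbol or gene ID. It now classes 9 of those as protein coding, among them Ndufb1, a subunit of mitochondrial complex I, and LOC100910821, which it names Fndc4. The label non-coding therefore rests on the older annotation for these 9.

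Counts were concentrated in a few members. The first 3 held 50.7% of all member counts and the first 10 held 69.8%, while the mean level over the libraries ranged over the 200 members from 4.25 to 2276 CPM, with a median of 7.91 CPM. These levels chose the members and are given without a test.

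**Figure D1:**
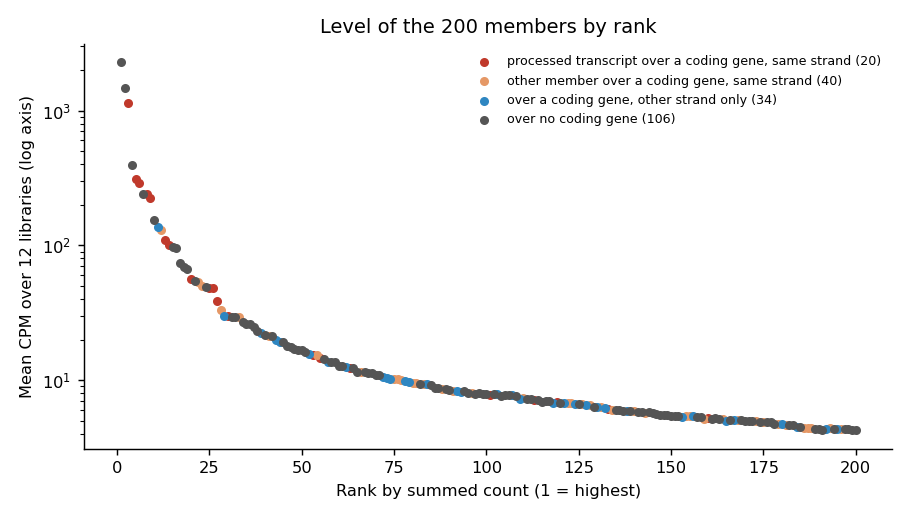
Mean CPM over 12 libraries (log axis, not divided by transcript length) of the 200 members against their rank by summed count, coloured by how each member's listed span overlaps coding genes. Levels run from 2276 CPM at rank 1 to 4.25 CPM at rank 200, and the first 10 are 5 processed transcripts over a coding gene and 5 members over none.

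Among the 4 most counted members, 3 lie side by side in one intergenic stretch of chromosome 1, on the minus strand near Frmd8 (chr1:221213312-221233967, minus strand). They are ENSRNOG00000062155.1 at chr1:221151827-221153278 (minus strand), ENSRNOG00000062127.1 at chr1:221154561-221156910 (minus strand) and ENSRNOG00000062158.1 at chr1:221158098-221158792 (minus strand), all on rn6. They carry no gene name in the sources used here, and whether they are parts of 1 longer RNA was not tested. Per length, on the authors' TPM scale, they were the 3 highest members: ENSRNOG00000062155.1 averaged 2279 TPM over the libraries, ENSRNOG00000062127.1 averaged 1062 TPM and ENSRNOG00000062158.1 averaged 627 TPM. Their order did not overlap in any group, and the next member, LOC108349561, lay below all 3 with 236 TPM. From there down the order is less firm, since LOC108349561, LOC100910973 (216 TPM) and LOC100912557 (215 TPM) overlapped their neighbours in at least 1 group.

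The most counted and the next of these lincRNAs fell at day 7. ENSRNOG00000062127.1 had 1599, 1674 and 1190.5 CPM in day-7 bladders, 2655, 2553 and 2857 CPM in day-14 bladders, 2477, 2316 and 2703 CPM in day-28 bladders and 2474, 2247 and 2572 CPM in controls. All 3 day-7 values lay below every other library. Its log2 change at day 7 was −0.58 ± 0.11 (adjusted p = 0.0031), and at days 14 and 28 it was 0.15 ± 0.11 (adjusted p = 0.60) and 0.01 ± 0.11 (adjusted p = 0.96). ENSRNOG00000062155.1 had 1195, 1009 and 842 CPM in day-7 bladders, against 1755, 1601 and 1965 CPM in controls, with no overlap and a change of −0.68 ± 0.12 (adjusted p = 0.0024). The third, ENSRNOG00000062158.1, averaged 261 ± 67.6 CPM at day 7 against 358 ± 55.5 CPM in controls (SD), and its change of −0.33 ± 0.15 (adjusted p = 0.15) did not pass the test. With the library sizes of the non-coding table in place of those of the gene table, the day-7 change of ENSRNOG00000062127.1 no longer passed (adjusted p = 0.058).

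Frmd8, the coding gene near these lincRNAs but not adjoining them, had a day-7 change of 0.21 ± 0.13 (adjusted p = 0.25).

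Many members share their locus with a coding gene. The listed spans of 111 members overlap another gene and those of 89 overlap none. On the same strand, 60 members lie over a coding gene and hold 34.0% of all member counts. Of these, 20 are processed transcripts and the other 40 belong mostly to the lncRNA class. A further 34 lie over a coding gene on the other strand only, and 106 lie over no coding gene. The sources used here do not say whether reads were counted by strand, so reads of such pairs cannot be assigned to one gene or the other. Spans are those listed, some of which run over more than a megabase (Cttn, Nup214 and Ccdc170), so that an overlap need not involve exons.

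The 20 processed transcripts had log2 changes close to those of the coding gene beneath them, whatever share of its count they held. ENSRNOG00000019648.8, whose listed span lies within Col6a3 (a chain of the matrix collagen type VI), held 85.5% of the count of Col6a3, ENSRNOG00000025244.7 held 99.1% of that of Trrap (a scaffold of histone acetyltransferase complexes), and ENSRNOG00000018960.7 held 114% of that of Syne1 (a nuclear envelope protein linked to the cytoskeleton). Over the 20 pairs this share ran from 6.04% of Thsd4 (ENSRNOG00000051221.2) to 206% of Fgd1 (ENSRNOG00000038970.5). Across the pairs the correlation of log2 CPM over 12 libraries had a median of 0.993 and a lowest value of 0.798. Between the log2 fold changes of member and coding gene the correlation across pairs was 0.998 at day 7, 0.984 at day 14 and 0.988 at day 28. Both changes of a pair lay within 0.2 of each other (log2) in 20 of 20 pairs at day 7, 18 at day 14 and 19 at day 28. Exceptions were the transcripts over Vps25 (ENSRNOG00000051065.2, higher than its coding gene by 0.37 at day 14 and 0.58 at day 28) and Fgd1 (ENSRNOG00000038970.5, by 0.25 at day 14). ENSRNOG00000051065.2 was paired with Vps25 because that coding gene has the highest count of those it overlaps on its strand. It also overlaps Wnk4 on the same strand, over 48.6% of its span against 15.6% for Vps25. Log2 counts of this transcript correlated over 12 libraries at 0.983 with Wnk4 and 0.788 with Vps25. These are descriptions, and since both counts can hold the same reads they are not independent.

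Among the 40 other members on the strand of a coding gene the likeness was lower. The correlation of log2 fold changes across pairs was 0.609 at day 7, 0.198 at day 14 and 0.534 at day 28, and 12, 20 and 18 of the 40 differed by at most 0.2. The median correlation over libraries was 0.686, with a range of −0.62 to 0.958.

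**Figure D2:**
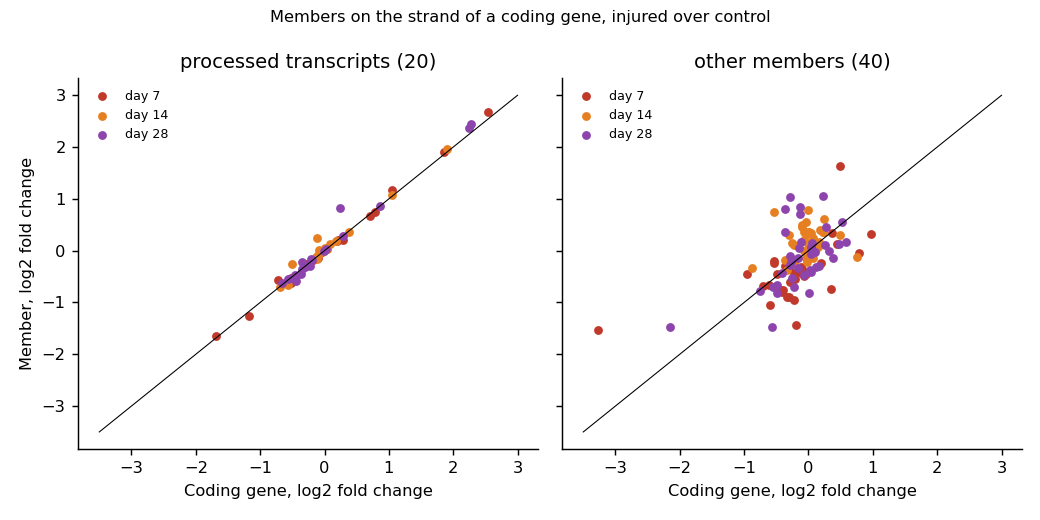
Log2 fold change (injured over control) of each member that lies on the strand of a coding gene, against that of the coding gene, for day 7, day 14 and day 28. The 20 processed transcripts follow the line of equality (correlation across pairs 0.984 to 0.998), while the 40 other members scatter around it (0.198 to 0.609).

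Summed over all members, the level was 8999 ± 839.6 CPM at day 7, 10137 ± 319 CPM at day 14 and 9709 ± 581 CPM at day 28, against 9873 ± 357 CPM in controls (SD, n = 3). Exact two-sided permutation tests against control gave p = 0.2 at day 7, p = 0.4 at day 14 and p = 0.6 at day 28, where 3 against 3 libraries cannot go below 0.1. At day 7 the difference was −873 CPM, but −54.7 CPM with the TMM-scaled library sizes that the fold changes use, and −402 CPM without day-7 replicate 3. Without the most abundant member it was 69.5 CPM, and over the members that overlap no other gene, which leaves out the transcript over Col6a3, it was −2035 CPM.

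Markers of the cell types of the bladder wall differed over the same libraries. The 5 macrophage and myeloid markers (such as Cd68 and Csf1r) summed to 989 to 1418 CPM at day 7, 585 to 1352 CPM at day 14 and 781 to 1573 CPM at day 28, against 259 to 300.1 CPM in controls. Of these markers 5, 4 and 5 were called higher at days 7, 14 and 28. The 4 fibroblast markers summed to 17330 to 20978 CPM at day 7 against 11313 to 15156 CPM in controls, a sum that is mostly Col1a1, with a mean of 17814 CPM at day 7 against 10436 CPM in controls. Dcn and Lum lay the other way, with means of 1133 and 482 CPM at day 7 against 2304 and 558 CPM in controls, and 0 of the 4 were called at day 7. The 6 urothelial markers summed to 2896 to 3359 CPM at day 7 against 4980 to 5681 CPM, with 4 called lower. T and NK markers summed to 17.99 to 57.4 CPM at day 28 against 4.998 to 6.47 CPM, with 3 of 4 called higher. Other lists moved as well. Called higher at day 7 were 4 of 4 endothelial, 3 of 3 mast cell, 3 of 3 proliferation, 3 of 3 erythroid and 3 of 5 smooth muscle markers, and at day 28 4 of 4 endothelial, 2 of 3 mast cell and 3 of 3 proliferation markers. The smooth muscle markers did not move together at day 7. Myh11 and Tagln had means of 5649 and 3896 CPM there against 10249 and 3960 CPM in controls, and neither was called. None of these markers was at 0 in every library, and their part in the results was not tested.

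At day 7, 16 members rose and 37 fell, which is 53 of 200 or 26.5%. Over all 3911 transcripts tested, 18.2% were called in this comparison, 6.75% higher and 11.4% lower. Members were chosen for high counts, while the tested transcripts reach down to the expression filter. The part of count level in these shares was not tested, here or in the other comparisons. The median log2 change was −0.31 over the members and −0.19 over all tested. With the totals and TMM factors of the non-coding table the median over all tested was −0.01 and the split of the members was 25 higher and 22 lower, so the excess of falls at day 7 depends on which library size is used. Leaving out 1 library gave counts of 28 to 63, and the count moved by over 1.5 times without day-7 replicate 2 (30 called), day-7 replicate 3 (29), control replicate 2 (32) or control replicate 3 (28).

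The largest rise at day 7 was that of LOC102547940, an uncharacterised RNA at chr9:80078960-80081320 (plus strand), 36709 bases from Igfbp2, which binds insulin-like growth factors. It overlaps no coding gene. LOC102547940 had 10.8, 8.44 and 10.1 CPM in day-7 bladders, 4.72, 10.9 and 6.57 CPM in day-14 bladders, 5.32, 7.18 and 1.36 CPM in day-28 bladders and 1.44, 1.48 and 1.17 CPM in controls. Day-7 and day-14 values all lay above the controls, and at day 28 replicate 3 fell inside the control range. The changes were 2.97 ± 0.47 (adjusted p = 0.0011) at day 7, 2.44 ± 0.47 (adjusted p = 0.017) at day 14 and 1.73 ± 0.47 (adjusted p = 0.021) at day 28. At day 14 the call was lost without day-14 replicate 2 or 3 or control replicate 1, 2 or 3 (at an adjusted p of 0.052 to 0.10), and at day 28 without day-28 replicate 1 or 2 or control replicate 1, 2 or 3 (at an adjusted p of 0.053 to 0.12). Igfbp2 rose at day 7 by 1.54 ± 0.27 (adjusted p = 0.0021), and its changes at days 14 and 28 were 0.37 ± 0.27 (adjusted p = 0.52) and 0.54 ± 0.27 (adjusted p = 0.19).

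The first of the promoters that RefSeq lists for LOC102547940 (GRCr8, chr9:81823283-81823582, plus strand) is shown because this member had the largest change at day 7. Each promoter is 300 bases long and ends shortly after the listed start. Capitals mark matches, on either strand, to the TATA box letters TATAAA, the CCAAT box letters CCAAT, the GC box letters GGGCGG or the AP-1 letters TGACTCA.
LOC102547940: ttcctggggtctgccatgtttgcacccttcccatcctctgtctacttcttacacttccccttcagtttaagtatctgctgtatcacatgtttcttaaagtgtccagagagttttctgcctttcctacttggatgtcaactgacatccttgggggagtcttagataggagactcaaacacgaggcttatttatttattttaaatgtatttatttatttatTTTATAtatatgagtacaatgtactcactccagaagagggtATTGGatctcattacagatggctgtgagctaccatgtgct
It held 1 TATA box match that begins 31 bases before the start and 1 CCAAT box match after it. Both matches lie on the strand opposite to that of the gene. Of 33469 listed rat promoters 14.2% hold a TATA box match, 37.5% a CCAAT box match, 33.1% a GC box match and 4.63% an AP-1 match.

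LOC102556643, at chr2:52671054-52679414 (plus strand) and over no coding gene, had 6.26, 5.04 and 5.92 CPM in day-7 bladders, 3.88, 9.25 and 6.74 CPM in day-14 bladders, 5.63, 7.56 and 10.5 CPM in day-28 bladders and 1.41, 0.924 and 2.08 CPM in controls. Every injured library lay above every control. Its change was 2.09 ± 0.35 (adjusted p = 0.0015) at day 7, 2.17 ± 0.35 (adjusted p = 0.012) at day 14 and 2.39 ± 0.35 (adjusted p = 5.98e-04) at day 28, and the day-14 call was lost without control replicate 1 or 2 (at an adjusted p of 0.054 to 0.068). Sums of several marker lists also lay above every control in every injured library. Among them were the macrophage and myeloid, neutrophil, mast cell and endothelial lists, and a link of this member to any of them was not tested.

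The transcript over Col6a3 rose at day 7. ENSRNOG00000019648.8 had 2371, 3123 and 2454 CPM in day-7 bladders, 489.8, 822 and 568 CPM in day-14 bladders, 458, 748 and 399 CPM in day-28 bladders and 589, 959 and 766 CPM in controls. The day-7 libraries lay far above all others, at a change of 1.91 ± 0.25 (adjusted p = 2.19e-04), beside 1.86 ± 0.29 (adjusted p = 9.74e-04) for Col6a3. At days 14 and 28 the change was −0.30 ± 0.24 (adjusted p = 0.63) and −0.55 ± 0.24 (adjusted p = 0.15). Direct tests between days gave −2.20 ± 0.25 (adjusted p = 1.76e-04) for day 14 over day 7 and −2.46 ± 0.25 (adjusted p = 4.19e-05) for day 28 over day 7. Of the 4 fibroblast markers, Col1a1 and Pdgfra had their highest means at day 7, Dcn and Lum were below control there, and none passed its own test.

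LOC108349480, at chr1:1207154-1220928 (plus strand), had 14.5, 26.7 and 18.5 CPM in day-7 bladders, against 5.17, 6.10 and 5.81 CPM in controls, a rise of 1.93 ± 0.28 (adjusted p = 4.65e-04). Its neighbour LOC102547056, 6628 bases away on the same strand, rose by 1.89 ± 0.49 (adjusted p = 0.016). ENSRNOG00000053113.1, a lincRNA within the long listed span of Ccdc170, had 8.55, 6.93 and 7.74 CPM in day-7 bladders, against 3.27, 2.55 and 2.34 CPM in controls, a rise of 1.63 ± 0.31 (adjusted p = 0.0032), while Ccdc170 had 0.49 ± 0.62 (adjusted p = 0.60). The values of both members were separate from those of controls.

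**Figure D3:**
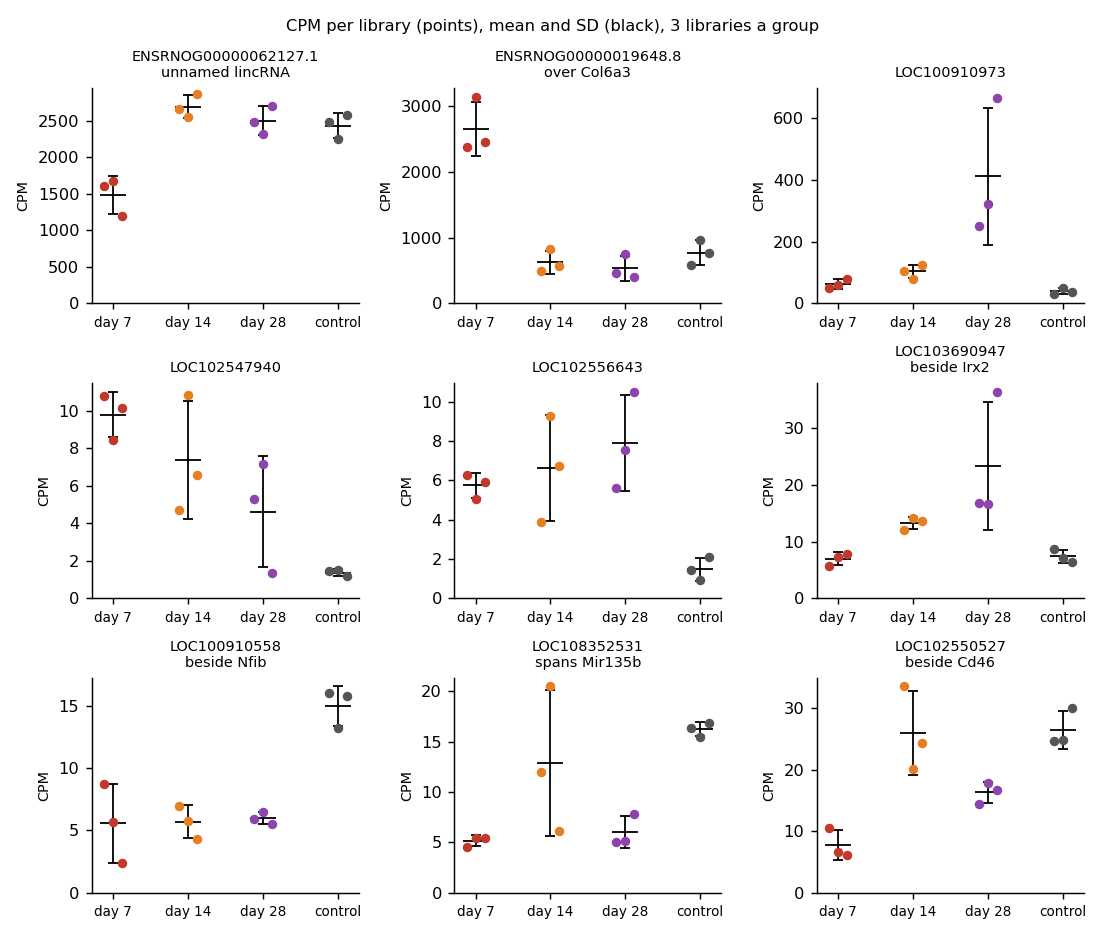
CPM per library (points), with the mean and SD of 3 libraries (black), for 9 members at day 7, day 14, day 28 and in controls; each panel has its own axis from 0. LOC100910973 reaches 248 to 663 CPM at day 28 against 31.2 to 49.4 CPM in controls, and LOC100910558 lies at 2.37 to 8.69 CPM in injured bladders against 13.2 to 15.98 CPM in controls.

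The 6 largest falls at day 7 began with the processed transcript ENSRNOG00000062252.1, which lies over Hmcn2, an extracellular matrix protein. It had 13.3, 3.27 and 3.45 CPM in day-7 bladders, against 22.7, 22.3 and 23.3 CPM in controls. Day-7 replicate 1 stood apart from the other two. The change was −1.66 ± 0.38 (adjusted p = 0.0094), and −2.62 without day-7 replicate 1. Hmcn2 fell by 1.68 on the log2 scale (SE 0.41, adjusted p = 0.011). LOC102550527, 7530 bases from the complement regulator Cd46, had 10.6, 6.57 and 6.11 CPM in day-7 bladders, 33.6, 20.1 and 24.3 CPM in day-14 bladders, 14.5, 17.9 and 16.8 CPM in day-28 bladders and 24.6, 24.8 and 30.1 CPM in controls. The day-7 and day-28 values were below the controls and the day-14 values spread around them, with a change of −1.65 ± 0.21 (adjusted p = 2.13e-04) at day 7, −0.72 ± 0.20 (adjusted p = 0.026) at day 28 and 1.62 ± 0.21 (adjusted p = 2.46e-04) for day 14 over day 7. The day-28 call was lost without day-28 replicate 1, 2 or 3 or control replicate 1, 2 or 3 (at an adjusted p of 0.052 to 0.12). Cd46 had −0.16 ± 0.20 (adjusted p = 0.59) at day 7.

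Of the other falls, LOC102556012 had 4.24, 1.08 and 0.911 CPM in day-7 bladders, against 7.92, 6.80 and 6.47 CPM in controls. Its change of −1.66 ± 0.44 (adjusted p = 0.018) was −2.68 without day-7 replicate 1 and was no longer called without day-7 replicate 2 or 3 or control replicate 1 (at an adjusted p of 0.064 to 0.079). Ppp1r36, a phosphatase regulatory subunit 4247 bases away, rose by 0.57 ± 0.15 (adjusted p = 0.016). LOC108352057 had 3.93, 1.57 and 1.98 CPM in day-7 bladders, against 7.99, 7.88 and 7.71 CPM in controls, a change of −1.54 ± 0.32 (adjusted p = 0.0055), and the gene on its other strand, LOC100361104, had too few counts to be tested. LOC103692132 lies inside Jazf1, a zinc finger regulator of transcription, and had 3.06, 1.60 and 2.28 CPM in day-7 bladders, against 4.75, 9.17 and 6.54 CPM in controls. Its change was −1.43 ± 0.27 (adjusted p = 0.0033) at day 7 and −1.47 ± 0.27 (adjusted p = 0.0027) at day 28, whereas Jazf1 had −0.19 ± 0.21 (adjusted p = 0.53) and −0.57 ± 0.21 (adjusted p = 0.080).

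By position, the 20 processed transcripts over a coding gene gave 5 rises and 4 falls at day 7, and the 40 other members on the strand of a coding gene gave 1 rise and 11 falls. The 34 members on the other strand only gave 4 and 8, and the 106 over no coding gene gave 6 and 14. Called shares of these classes, as listed, were 45.0%, 30.0%, 35.3% and 18.9%, against 18.2% over all tested. Median changes were −0.15, −0.44, −0.29 and −0.29 in that order, against −0.19 over all tested.

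At day 14, 7 members rose and 2 fell, 9 of 200 or 4.5%, against 2.15% called over all tested (1.3% higher and 0.844% lower). The median change was 0.02 over the members and −0.04 over all tested. Leaving out 1 library gave 0 to 11 calls, with over 1.5-fold fewer without day-14 replicate 2 (4 called) or replicate 3 (2), and without control replicate 1 (1), replicate 2 (0) or replicate 3 (2). Without control replicate 2 no member passed in edgeR, though 32 had an unadjusted p under 0.05. With all libraries but no expression filter 27 members passed, and DESeq2 called 13.

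Besides LOC102547940 and LOC102556643, the rises at day 14 included those of LOC100910973 (described with day 28), LOC100909928, LOC102549619 and LOC108350833. LOC100909928 at chr4:162988326-162991176 (minus strand) overlaps LOC108350772 on the other strand. It had 20.5, 20.2 and 16.6 CPM in day-7 bladders, 42.1, 34.3 and 29.2 CPM in day-14 bladders, 38.5, 37.8 and 60.2 CPM in day-28 bladders and 17.0, 19.2 and 24.2 CPM in controls. Day-14 and day-28 values were all above the controls, with changes of 0.80 ± 0.18 (adjusted p = 0.035) and 1.15 ± 0.18 (adjusted p = 0.0010), the first of them lost without day-14 replicate 1, 2 or 3 or control replicate 1, 2 or 3 (at an adjusted p of 0.055 to 0.18). LOC108350772 had 0.88 ± 0.38 (adjusted p = 0.25) at day 14 and 2.11 ± 0.38 (adjusted p = 0.0034) at day 28.

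LOC102549619, in the listed span of Cttn (an actin-binding protein of the cell cortex), had 28.5, 30.3 and 26.9 CPM in day-7 bladders, 33.1, 42.9 and 31.3 CPM in day-14 bladders, 41.0, 44.8 and 44.7 CPM in day-28 bladders and 24.8, 23.2 and 25.6 CPM in controls. Every injured value lay above every control. Its changes were 0.55 ± 0.12 (adjusted p = 0.032) at day 14 and 0.80 ± 0.12 (adjusted p = 7.61e-04) at day 28, the first lost without day-14 replicate 2 or 3, day-28 replicate 2 or control replicate 1, 2 or 3 (at an adjusted p of 0.053 to 0.15), while Cttn had −0.04 ± 0.12 (adjusted p = 0.89) and −0.37 ± 0.12 (adjusted p = 0.047). LOC108350833, named here after its values were seen, passed at day 14 with 0.69 ± 0.17 (adjusted p = 0.048), but its day-14 values overlapped those of controls and the call was lost without day-7 replicate 2 or 3, day-14 replicate 1 or 3, day-28 replicate 1, 2 or 3 or control replicate 1, 2 or 3 (at an adjusted p of 0.057 to 0.24).

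Both members that fell at day 14 had lower values on the other days too. LOC100910558 lies at chr5:100650512-100688185 (plus strand), starting 2550 bases from Nfib, a transcription factor of lung, muscle and brain development. It had 8.69, 5.66 and 2.37 CPM in day-7 bladders, 6.96, 5.76 and 4.34 CPM in day-14 bladders, 5.93, 6.48 and 5.52 CPM in day-28 bladders and 15.98, 13.2 and 15.7 CPM in controls. No injured library reached the lowest control. Changes were −1.31 ± 0.31 (adjusted p = 0.011), −1.40 ± 0.31 (adjusted p = 0.031) and −1.35 ± 0.31 (adjusted p = 0.0093) at days 7, 14 and 28, and the day-14 call was lost without day-14 replicate 2 or 3 or control replicate 1, 2 or 3 (at an adjusted p of 0.082 to 0.14). Nfib had −0.24 ± 0.15 (adjusted p = 0.28), −0.47 ± 0.15 (adjusted p = 0.14) and −0.62 ± 0.15 (adjusted p = 0.017).

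The promoter that RefSeq lists for LOC100910558 (GRCr8, chr5:102021875-102022174, plus strand) is shown because this member was lower on every day. It holds no match to the 4 motifs spelled out above.
LOC100910558: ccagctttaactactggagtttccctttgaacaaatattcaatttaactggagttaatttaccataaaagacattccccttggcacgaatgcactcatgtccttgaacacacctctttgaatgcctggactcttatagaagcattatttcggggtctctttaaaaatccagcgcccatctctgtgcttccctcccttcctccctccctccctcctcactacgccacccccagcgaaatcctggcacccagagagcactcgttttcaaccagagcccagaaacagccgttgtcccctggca

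LOC102549789, at chr2:5635236-5825696 (plus strand), had 5.91, 5.43 and 4.36 CPM in day-7 bladders, 7.84, 7.08 and 7.87 CPM in day-14 bladders, 6.03, 6.03 and 5.46 CPM in day-28 bladders and 11.5, 12.3 and 15.3 CPM in controls. Its changes were −1.19 ± 0.16 (adjusted p = 3.73e-04), −0.78 ± 0.16 (adjusted p = 0.025) and −1.18 ± 0.16 (adjusted p = 3.84e-04), and the second was lost without day-14 replicate 1, 2 or 3 or control replicate 1, 2 or 3 (at an adjusted p of 0.053 to 0.14). Every injured value lay below every control. The nearest coding gene, LOC684998 at 1361 bases, had −0.73 ± 0.32 (adjusted p = 0.11), −1.19 ± 0.32 (adjusted p = 0.078) and −0.80 ± 0.32 (adjusted p = 0.10) on the 3 days.

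At day 28, 19 members rose and 20 fell, 39 of 200 or 19.5%, against 13.6% over all tested (6.55% higher and 7.03% lower). The median change was −0.08 over the members and −0.09 over all tested, and with the library sizes of the non-coding table that over all tested was 0.05 and the split 23 higher and 18 lower. Leaving out 1 library gave 26 to 43 calls.

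**Figure D4:**
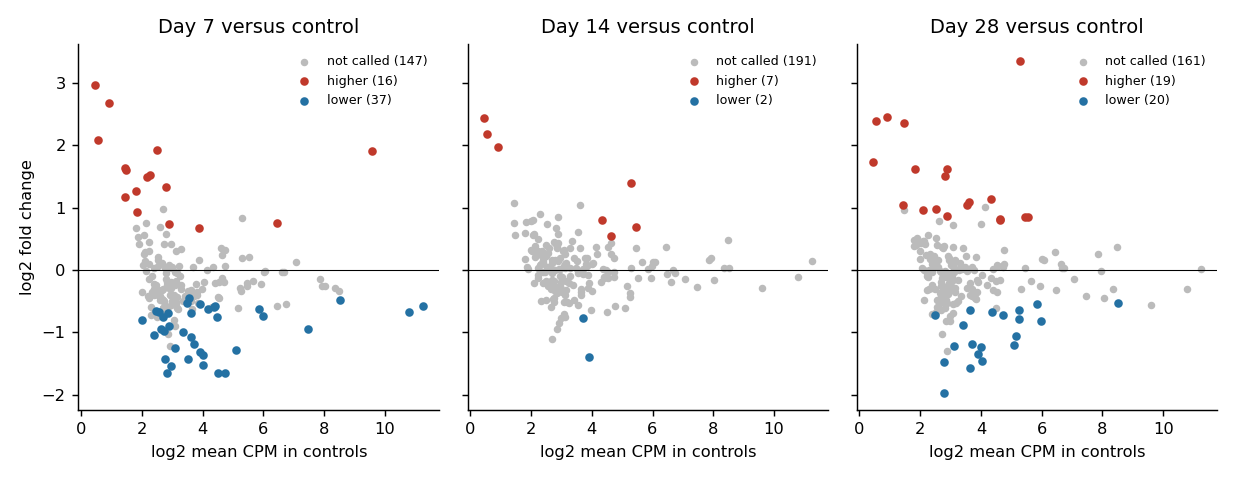
Log2 fold change of the 200 members at day 7, day 14 and day 28 over control, against the log2 mean CPM in controls; red points are members called higher, blue points members called lower (adjusted p under 0.05) and grey points members not called. Day 7 shows 16 higher and 37 lower, day 14 shows 7 and 2, and day 28 shows 19 and 20.

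LOC100910973 had the largest change of any member on any day. It lies at chr1:227110936-227113844 (minus strand), overlaps no other gene and is 22310 bases from Ms4a8, of a family of membrane-spanning proteins. LOC100910973 had 49.6, 60.4 and 79.4 CPM in day-7 bladders, 105, 80.4 and 125 CPM in day-14 bladders, 248, 321 and 663 CPM in day-28 bladders and 31.2, 49.4 and 36.5 CPM in controls. The day-28 values were above all others, and replicate 3 was the highest. Its change was 3.36 ± 0.33 (adjusted p = 5.01e-05) at day 28, 1.40 ± 0.31 (adjusted p = 0.030) at day 14 and 0.83 ± 0.30 (adjusted p = 0.072) at day 7. The day-14 call was lost without day-14 replicate 1 or 3 or control replicate 1, 2 or 3 (at an adjusted p of 0.053 to 0.15). Between days, day 28 was above day 14 by 1.96 ± 0.31 (adjusted p = 0.0049) and above day 7 by 2.53 ± 0.32 (adjusted p = 3.02e-04). In the authors' deposited table the log2 fold change of this transcript was 3.46 at day 28, 1.48 at day 14 and 1.05 at day 7.

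RefSeq lists 2 promoters for LOC100910973, and the first (GRCr8, chr1:217133198-217133497, minus strand) is printed here because it belongs to the member with the largest change.
LOC100910973: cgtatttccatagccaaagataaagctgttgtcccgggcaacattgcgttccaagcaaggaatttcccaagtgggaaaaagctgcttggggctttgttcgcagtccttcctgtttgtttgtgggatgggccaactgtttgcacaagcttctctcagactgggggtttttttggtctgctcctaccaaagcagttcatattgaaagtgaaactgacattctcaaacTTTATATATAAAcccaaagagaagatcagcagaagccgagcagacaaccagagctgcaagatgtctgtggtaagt
The capitals hold 2 TATA box matches, one on each strand, which begin 25 and 19 bases before the start and abut. No CCAAT, GC box or AP-1 letters were found in this window.

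Ms4a8 had too few counts to be tested, with means of 0.125, 0.131 and 0.386 CPM at days 7, 14 and 28 and 0.279 CPM in controls. A second member lies beside LOC100910973 on the same strand. LOC100911030, at chr1:227093975-227108899 (minus strand), had 10.3, 6.41 and 7.09 CPM in day-7 bladders, 15.4, 38.4 and 21.4 CPM in day-14 bladders, 14.9, 24.6 and 40.5 CPM in day-28 bladders and 11.2, 11.02 and 14.4 CPM in controls. Day-14 and day-28 values were above the day-7 values without overlap, by 1.54 ± 0.35 (adjusted p = 0.012) and 1.59 ± 0.35 (adjusted p = 0.012). The first of these calls was lost without day-7 replicate 2 or 3 (at an adjusted p of 0.052 to 0.057) and the second without day-7 replicate 2 or 3 or day-28 replicate 3 (at an adjusted p of 0.053 to 0.059). Against control the change was 1.10 ± 0.34 (adjusted p = 0.046) at day 28, which was 0.68 without day-28 replicate 3 and was not called without day-7 replicate 2 or 3, day-14 replicate 3, day-28 replicate 2 or 3 or control replicate 1, 2 or 3 (at an adjusted p of 0.051 to 0.23).

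The processed transcript ENSRNOG00000053200.2 lies over Dock10, an exchange factor for small GTPases, and had 80.5, 88.9 and 87.3 CPM in day-28 bladders, against 43.1, 45.0 and 51.0 CPM in controls. It rose at day 28 by 0.86 ± 0.16 (adjusted p = 0.0034), beside 0.86 ± 0.17 (adjusted p = 0.0062) for Dock10, and day 28 was above day 14 by 0.98 ± 0.16 (adjusted p = 0.0049). Its day-28 values were separate from those of controls. In the same libraries 3 of 4 T and NK, 5 of 5 macrophage and myeloid, 4 of 4 endothelial and 3 of 3 proliferation markers were called higher. A link of this transcript to any of these lists was not tested.

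LOC103690947 lies at chr1:33277555-33281870 (plus strand), 1687 bases from Irx2, a homeobox transcription factor transcribed from the other strand. It had 5.70, 7.26 and 7.87 CPM in day-7 bladders, 12.1, 14.1 and 13.6 CPM in day-14 bladders, 16.8, 16.7 and 36.5 CPM in day-28 bladders and 8.62, 7.10 and 6.47 CPM in controls. Values at day 28 were above all day-7 and control values, with replicate 3 highest. The change at day 28 was 1.62 ± 0.26 (adjusted p = 0.0011), beside 1.82 ± 0.27 (adjusted p = 0.0012) for Irx2, and day 28 over day 7 was 1.58 ± 0.26 (adjusted p = 0.0024). At day 7, LOC103690947 had 0.04 ± 0.26 (adjusted p = 0.94) and Irx2 had −0.06 ± 0.27 (adjusted p = 0.89).

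LOC102555426, on the other strand of the synaptic scaffold gene Dlgap1, had 8.37, 10.7 and 14.7 CPM in day-28 bladders, against 3.91, 3.44 and 3.40 CPM in controls, without overlap. It rose by 1.62 ± 0.30 (adjusted p = 0.0026), while Dlgap1 had −0.30 ± 0.33 (adjusted p = 0.57).

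The largest fall at day 28 was that of LOC102549521, one of the last members by count, at chr10:101493136-101503079 (minus strand). It had 4.41, 2.75 and 4.33 CPM in day-7 bladders, 5.78, 5.76 and 3.42 CPM in day-14 bladders, 1.29, 1.98 and 2.03 CPM in day-28 bladders and 7.22, 7.84 and 5.37 CPM in controls. Day-28 values were below all others, with changes of −1.98 ± 0.28 (adjusted p = 4.68e-04) against control, −1.52 ± 0.28 (adjusted p = 0.0092) against day 14 and −1.27 ± 0.28 (adjusted p = 0.012) against day 7, the last of these lost without day-7 replicate 3 (at an adjusted p of 0.054). LOC102548352, on the other strand at the edge of Plcd1 (a phospholipase C), had 4.81, 3.85 and 4.03 CPM in day-28 bladders, against 11.3, 14.1 and 11.7 CPM in controls. Its day-28 change was −1.57 ± 0.21 (adjusted p = 3.31e-04), beside −0.98 ± 0.12 (adjusted p = 4.08e-04) for Plcd1, and day 28 over day 14 was −1.22 ± 0.21 (adjusted p = 0.0066). LOC102547572, 12708 bases from the collagen cross-linking enzyme gene Loxl4, had 8.66, 3.53 and 5.07 CPM in day-7 bladders, 17.9, 17.3 and 16.4 CPM in day-14 bladders, 9.25, 5.82 and 5.79 CPM in day-28 bladders and 19.2, 17.3 and 11.9 CPM in controls. Days 7 and 28 were low and day 14 lay with the controls, at −1.36 ± 0.28 (adjusted p = 0.0055) for day 7 and −1.24 ± 0.28 (adjusted p = 0.0090) for day 28. Day 28 over day 14 was −1.33 ± 0.28 (adjusted p = 0.018), a call lost without day-14 replicate 1 or day-28 replicate 2 or 3 (at an adjusted p of 0.062 to 0.083).

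The direct tests between days showed mostly higher values after day 7. At day 14, 39 members were higher and 6 lower than at day 7, against 11.4% called over all tested (7.01% higher and 4.37% lower). With the totals and TMM factors of the non-coding table the split was 30 higher and 10 lower, and the median change over all tested was 0.04 in place of 0.14. Only 22, 24 and 25 members were called without day-7 replicate 2, day-7 replicate 3 and day-14 replicate 1. For day 28 over day 7, 26 members were higher and 7 lower (10.4% over all tested, 6.16% higher and 4.19% lower), with 17, 16 and 17 called without day-7 replicate 2, day-7 replicate 3 and day-28 replicate 3. For day 28 over day 14, 4 were higher and 10 lower (4.5% over all tested, 2.17% higher and 2.33% lower), with 5, 4 and 5 called without day-14 replicate 1, day-28 replicate 2 and day-28 replicate 3.

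Of the 40 members on the strand of a coding gene that are not processed transcripts, 18 were higher and 0 lower at day 14 than at day 7. That is 45.0% of these members, against 11.4% called over all tested. Their median change was 0.60, against 0.29 over all members and 0.14 over all tested. LOC108349472, inside the microtubule-binding gene Map7, had 9.25, 4.57 and 7.06 CPM in day-14 bladders, against 2.43, 1.93 and 1.98 CPM in day-7 bladders, a change of 1.58 ± 0.27 (adjusted p = 0.0022) beside 0.40 ± 0.14 (adjusted p = 0.071) for Map7. Further examples were chosen after their values were seen. Changes for day 14 over day 7 were 1.07 ± 0.20 (adjusted p = 0.0049) for LOC103693413 in Msi2 and 1.04 ± 0.27 (adjusted p = 0.022) for LOC102547564 in the glucocorticoid receptor gene Nr3c1. They were 0.95 ± 0.27 (adjusted p = 0.032) for LOC103693072 in Sik3, 1.06 ± 0.23 (adjusted p = 0.010) for LOC103692251 in Plekha5 and 0.86 ± 0.24 (adjusted p = 0.028) for LOC102554514 in Usp46. Leaving out 1 library ended the call of LOC102547564 without day-7 replicate 2 or 3 or day-14 replicate 1 or 3 (at an adjusted p of 0.054 to 0.12), LOC103693072 without day-7 replicate 1, 2 or 3 or day-14 replicate 1 or 3 (at an adjusted p of 0.056 to 0.14) and LOC102554514 without day-7 replicate 2 or 3 or day-14 replicate 1 (at an adjusted p of 0.085 to 0.16), the last of which was at 0.56 without day-14 replicate 1. LOC102547564, LOC103693413 and LOC103692251 had means of 8.14, 7.39 and 9.42 CPM at day 14, against 3.62, 3.22 and 4.12 CPM at day 7. The coding genes around these members had 0.80 ± 0.10 (Msi2), 0.07 ± 0.13 (Nr3c1), −0.03 ± 0.11 (Sik3), 0.44 ± 0.14 (Plekha5) and 0.20 ± 0.16 (Usp46).

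Of the members named for the largest changes between days, LOC102554092 lies on the other strand of Bcas3. It had 3.41, 4.78 and 3.51 CPM in day-7 bladders, 15.3, 10.6 and 12.3 CPM in day-14 bladders, 11.9, 11.2 and 17.7 CPM in day-28 bladders and 9.71, 14.0 and 10.6 CPM in controls. Every day-7 value was below every other, at −1.42 ± 0.22 (adjusted p = 8.26e-04) against control, with day 14 above day 7 by 1.57 ± 0.22 (adjusted p = 4.64e-04) and day 28 above day 7 by 1.65 ± 0.22 (adjusted p = 3.99e-04). Bcas3 had −0.49 ± 0.14 (adjusted p = 0.026) at day 7. LOC100910821, named Fndc4 in RefSeq, had 9.53, 12.0 and 13.4 CPM in day-7 bladders, 3.92, 5.48 and 6.53 CPM in day-14 bladders, 6.34, 6.79 and 5.35 CPM in day-28 bladders and 4.05, 4.84 and 4.64 CPM in controls. The day-7 values were above all others, by 1.497 ± 0.22 (adjusted p = 5.40e-04) over control, and the changes of day 14 and day 28 over day 7 were −1.26 ± 0.22 (adjusted p = 0.0028) and −1.07 ± 0.21 (adjusted p = 0.0072). The nearest coding gene, Ift172, had −0.33 ± 0.13 (adjusted p = 0.076) at day 7. LOC103693676, 931 bases from Ildr2 on the same strand, had 5.56, 5.06 and 1.39 CPM in day-28 bladders, against 9.004, 17.3 and 12.0 CPM in day-7 bladders, a change of −1.82 ± 0.47 (adjusted p = 0.026) that was lost without day-7 replicate 2 or 3 or day-28 replicate 3 (at an adjusted p of 0.066 to 0.096). Ildr2 rose at day 7 over control by 1.42 ± 0.44 (adjusted p = 0.034).

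There are 3 members that span microRNA genes on their own strand, and LOC102556224 spans a small Cajal body RNA gene. They are described for that position, LOC106182250 and Lnc215 after their values were seen. MicroRNAs are cut from longer transcripts and pair with messenger RNAs through bases 2 to 8, the seed, and the miR-200 family is known for holding epithelial cells in their state. Reads of 50 bases are longer than a mature microRNA, so the counts below are those of longer RNA. LOC106182250 at chr5:173487137-173494502 (minus strand) spans Mir200b, Mir200a and Mir429 within the listed span of Ttll10. RefSeq's 5p mature sequences of that cluster share 1 seed (capitals).
rno-miR-200a-5p: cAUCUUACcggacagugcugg
rno-miR-200b-5p: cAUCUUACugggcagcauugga
The hairpins of the cluster are shown next, with the letters AAUACUG in capitals, the seed of the related rno-miR-200c-3p. Mir200b and Mir429 each hold that seed 1 time and Mir200a holds it 0 times.
Mir200b: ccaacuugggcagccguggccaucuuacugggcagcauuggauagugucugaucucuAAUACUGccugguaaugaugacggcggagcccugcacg
Mir429: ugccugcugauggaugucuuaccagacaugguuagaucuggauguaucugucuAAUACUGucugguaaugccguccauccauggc
Mir200a: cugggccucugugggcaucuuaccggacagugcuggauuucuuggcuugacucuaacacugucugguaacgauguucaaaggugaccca

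LOC106182250 had 8.24, 8.01 and 7.02 CPM in day-7 bladders, 18.8, 16.1 and 18.4 CPM in day-14 bladders, 16.1, 20.3 and 37.0 CPM in day-28 bladders and 10.6, 11.4 and 12.8 CPM in controls. Day-7 values were below all controls and day-14 and day-28 values above them, with day-28 replicate 3 far above the rest. Its change was −0.45 ± 0.23 (adjusted p = 0.19) at day 7, 0.62 ± 0.22 (adjusted p = 0.20) at day 14 and 1.05 ± 0.22 (adjusted p = 0.0067) at day 28, and day 14 was above day 7 by 1.07 ± 0.23 (adjusted p = 0.0093). Without day-28 replicate 3 the day-28 change was 0.64. Reads listed under Mir200a itself averaged 0.621, 1.71 and 2.45 CPM at days 7, 14 and 28 and 1.48 CPM in controls. The 6 urothelial markers summed to 2896 to 3359 CPM at day 7, 4068 to 4682 CPM at day 14, 3211 to 4228 CPM at day 28 and 4980 to 5681 CPM in controls. Of the 6, 4 were called lower at day 28. Krt5, a marker of basal cells, lay the other way there, with a mean of 361 CPM against 135 CPM in controls. A link of LOC106182250 to these markers was not tested. Ttll10, a tubulin-modifying enzyme gene, had −0.96 ± 0.27 (adjusted p = 0.024) at day 7 and 0.23 ± 0.27 (adjusted p = 0.61) at day 28.

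LOC108352531 at chr13:48975353-48988474 (plus strand) spans Mir135b.
rno-miR-135b-5p: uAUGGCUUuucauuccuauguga
rno-miR-135b-3p: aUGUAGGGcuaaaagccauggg
It had 4.52, 5.46 and 5.46 CPM in day-7 bladders, 12.0, 20.5 and 6.18 CPM in day-14 bladders, 5.05, 5.13 and 7.83 CPM in day-28 bladders and 16.4, 15.5 and 16.8 CPM in controls. Day-7 and day-28 values were all below the controls, with changes of −1.53 ± 0.31 (adjusted p = 0.0052) and −1.47 ± 0.31 (adjusted p = 0.0066), and the day-14 values were spread from low to above the controls, at −0.34 ± 0.30 (adjusted p = 0.68). The gene listed around it on the same strand, LOC102556277, also fell, with −3.27 ± 0.63 (adjusted p = 0.0034) at day 7 and −2.15 ± 0.57 (adjusted p = 0.022) at day 28, on few counts.

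Lnc215 at chr8:45691196-45809133 (plus strand) spans Mir100, Mirlet7a-2 and Mir125b1, and overlaps a second member, Vof16.
rno-miR-100-5p: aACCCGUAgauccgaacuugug
rno-let-7a-5p: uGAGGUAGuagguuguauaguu
rno-miR-125b-1-3p: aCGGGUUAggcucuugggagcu
The seeds of these 3 differ. Lnc215 averaged 8.09 ± 0.738 CPM at day 7, 6.58 ± 0.397 CPM at day 14 and 6.81 ± 2.51 CPM at day 28, against 9.48 ± 1.72 CPM in controls (SD). None of its changes passed the test, at −0.10 ± 0.24 (adjusted p = 0.80), −0.52 ± 0.24 (adjusted p = 0.34) and −0.50 ± 0.24 (adjusted p = 0.20). LOC102556224 spans Scarna15, whose class guides the modification of small nuclear RNAs, and had 0.03 ± 0.20 (adjusted p = 0.94), −0.20 ± 0.20 (adjusted p = 0.71) and −0.30 ± 0.20 (adjusted p = 0.36).

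Few members were found by symbol on lists of known long non-coding RNAs, and few of those passed the test. Members that carry only an identifier can be missed by such a search, so known RNAs among them are not excluded. Of 119 symbols on lists of known long non-coding RNAs, 16 were found in the table, 11 were tested and 5 are members. Over the 11 tested, 1 was called higher and 2 lower at day 7, 0 were called at day 14 in edgeR (1 had an unadjusted p under 0.05, and DESeq2 called 0), and 1 was called higher and 2 lower at day 28. The span of Tug1 lies wholly within that of a second member, ENSRNOG00000051135.2, on the same strand. Their counts over all libraries were 22912 and 23834 and correlated at 0.998 (log2), so both can hold the same reads. Tug1, which associates with chromatin-modifying complexes in human cells, had 50.2, 62.2 and 60.6 CPM in day-7 bladders, 70.3, 76.8 and 64.1 CPM in day-14 bladders, 72.3, 75.7 and 73.9 CPM in day-28 bladders and 60.5, 65.3 and 67.6 CPM in controls. The day-28 values lay above those of controls and the others overlapped with them, but no change passed in edgeR, and the values were −0.03 ± 0.11 (adjusted p = 0.88), 0.13 ± 0.11 (adjusted p = 0.67) and 0.17 ± 0.11 (adjusted p = 0.34). Gas5, a host of small nucleolar RNAs that rises with growth arrest, averaged 30.7 ± 7.52, 30.4 ± 6.11 and 29.3 ± 4.70 CPM at days 7, 14 and 28 and 26.8 ± 6.16 CPM in controls (SD), with a day-7 change of 0.32 ± 0.21 (adjusted p = 0.32). Oip5-as1 (listed as LOC100910827), a cytoplasmic RNA that binds microRNAs and the protein HuR in human cells, averaged 191 ± 23.3, 259 ± 14.95 and 279 ± 6.17 CPM against 230.3 ± 18.5 CPM, and its day-28 change was 0.25 ± 0.10 (adjusted p = 0.12). Pvt1, the neighbour of Myc, averaged 5.54 ± 1.88, 5.08 ± 0.772 and 4.26 ± 0.513 CPM against 5.82 ± 0.654 CPM, with a day-28 change of −0.48 ± 0.24 (adjusted p = 0.22). In the authors' deposited table the day-28 log2 fold changes of Tug1 (0.27, q = 0.028) and Oip5-as1 (0.35, q = 0.0020) had a q-value under 0.05. Those of Gas5 (q = 0.44) and Pvt1 (q = 0.20) did not.

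Fendrr, transcribed divergently from Foxf1, a transcription factor of visceral smooth muscle and mesenchyme, was the one of these 5 with a change that passed in edgeR. It had 10.3, 8.34 and 8.55 CPM in day-7 bladders, 11.2, 8.97 and 9.89 CPM in day-14 bladders, 9.32, 7.45 and 7.52 CPM in day-28 bladders and 11.5, 12.8 and 12.9 CPM in controls. Every injured value lay below every control. The change passed at day 28, with −0.64 ± 0.15 (adjusted p = 0.012), but not at day 7 (−0.32 ± 0.15) or day 14 (−0.31 ± 0.15), and the day-28 call was lost without day-28 replicate 2 or 3 or control replicate 2 (at an adjusted p of 0.054 to 0.062). Foxf1 had changes of −0.75 ± 0.15 (adjusted p = 0.0046) at day 7 and −0.64 ± 0.15 (adjusted p = 0.014) at day 28, both past the test. The span of Fendrr also lies within that of RGD1304884 on the other strand, and that coding gene rose by 1.30 ± 0.22 (adjusted p = 0.0017) at day 7 and 0.86 ± 0.22 (adjusted p = 0.019) at day 28.

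Of the remaining abundant members, the processed transcript over Syne2 (ENSRNOG00000005323.8) fell at days 7 and 28, with −0.48 ± 0.12 (adjusted p = 0.014) and −0.54 ± 0.12 (adjusted p = 0.0081), the first lost without day-7 replicate 2 or 3 or control replicate 1 (at an adjusted p of 0.051 to 0.068) and under the non-coding library sizes, where it was −0.31. Those over Trrap (ENSRNOG00000025244.7), Smg1 (ENSRNOG00000047386.3, a kinase of nonsense-mediated decay) and Syne1 (ENSRNOG00000018960.7) did not pass on any of the 3 days in edgeR's fit of all libraries. Their day-28 changes were −0.31 ± 0.10 (adjusted p = 0.053), −0.01 ± 0.10 (adjusted p = 0.96) and −0.45 ± 0.15 (adjusted p = 0.056). At day 28 the transcript over Trrap passed in DESeq2 (adjusted p = 0.041) and in the fit of only the groups compared (0.044), and that over Syne1 did so in both as well (0.043 and 0.039).

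In the authors' deposited tables, members with a q-value under 0.05 whose log2 fold change was 1 or more in size numbered 15 higher and 8 lower at day 7, 5 and 2 at day 14, and 14 and 9 at day 28. Over all transcripts of the authors' deposited tables, 10.9%, 3.55% and 10.0% met the same thresholds on those days. From edgeR, the members called with an absolute log2 change of at least 1 numbered 12 higher and 14 lower at day 7, 4 and 1 at day 14, and 12 and 10 at day 28. The share of all tested transcripts at this edgeR cutoff was not computed, and the shares above come from the authors' own test.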

How the data were processed

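Bladder RNA of 12 libraries was measured by RNA sequencing. HISAT2 2.1.0, HTSeq 0.11.2, bcl2fastq and rn6 are named, per the submitters' processing notes. The sources used here do not say whether reads were counted by strand. The authors deposited raw read counts and TPM per gene and per non-coding transcript, and the deposited TPM was used only for levels per length. The authors' comparison tables hold log2 fold changes with p-values and q-values, with no tool stated, and were used only where named.

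Transcripts of the non-coding table were kept by filterByExpr (minimum count 10, minimum total 15), which left 3911. Library sizes and TMM factors came from the gene table. The counts of all 4 groups entered 1 model of edgeR 4.0.16 (R 4.3.3), tested on simulated data before use, and coding genes were fitted in the same way in the gene table. Reading tables used the R package data.table (version 1.17.8), and summaries used Python 3.11.15, pandas 2.3.3, scipy 1.17.1 and matplotlib 3.10.9. Isoforms and overlapping genes can share reads. Intervals of counting error were not needed, as no share of a single library is reported.

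The members and lists were chosen with earlier results of these data known. Genes named were the 10 members with the highest sums, per day the 6 largest rises and 6 largest falls that passed the test without overlapping the controls, per comparison of days the 4 largest in each direction, members of the lists of known long non-coding RNAs, those at the boundary of rank 200, and the coding gene overlapping or nearest to a named member. A few genes that meet this rule are not reported here. Alternatives were DESeq2 1.42.0, RLE scaling, the totals of the non-coding table, other expression filters, only the groups compared, 1 transcript per gene, the replicate number as a block, other choices of members and leaving out each library in turn. Replicates of a group differed by a chi-square per degree of freedom of 7.15 to 24.8, so none was a repeat deposit. Promoter and microRNA sequences are RefSeq's, of GRCr8.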

Additional observations from a re-analysis of the deposited data

Results flagged for a closer look

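The direct test between 2 days passed for each difference given here, and each is the log2 fold change of the later day over the earlier one. They were among the largest of each comparison among members whose libraries of the 2 days did not overlap, and no explanation of them was tested.

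For day 14 over day 7 the higher members were LOC102550527 (1.62), LOC108349472 (1.58), LOC102554092 (1.57) and LOC100911030 (1.54). The lower ones were the transcripts over Col6a3 (ENSRNOG00000019648.8, −2.20) and Uggt2 (ENSRNOG00000058057.2, −0.76), LOC100910821 (−1.26) and LOC108349480 (−1.19). The transcript over Uggt2, an enzyme of glycoprotein folding control, had 11.4, 15.1 and 14.8 CPM at day 14, against 20.4, 22.9 and 20.7 CPM at day 7, and its call was lost without day-7 replicate 2 or 3 or day-14 replicate 1. Uggt2 itself had −0.81 ± 0.22 (edgeR's adjusted p = 0.027). The call of LOC108349480 was lost without day-7 replicate 2 or day-14 replicate 1.

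For day 28 over day 14 the higher members were LOC100910973 (1.96), the transcript over Dock10 (ENSRNOG00000053200.2, 0.98) and LOC103691165 (0.91). LOC103691165 had 28.2, 38.8 and 36.3 CPM at day 28, against 22.5, 14.7 and 16.8 CPM at day 14, and its call was lost without day-28 replicate 2 or 3. The lower members were LOC102549521 (−1.52), LOC102547572 (−1.33), LOC103692132 (−1.29) and LOC102548352 (−1.22), and the call of LOC103692132 was lost without day-14 replicate 1 or day-28 replicate 2 or 3.

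For day 28 over day 7 the higher members were LOC100910973 (2.53), LOC102554092 (1.65), LOC100911030 (1.59) and LOC103690947 (1.58), and the lower ones the transcript over Col6a3 (ENSRNOG00000019648.8, −2.46), LOC103693676 (−1.82), LOC102549521 (−1.27) and LOC100910821 (−1.07).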

How the results depend on the processing

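In the main analysis 53, 9 and 39 members were called at days 7, 14 and 28, and 45, 14 and 33 for day 14 over 7, day 28 over 14 and day 28 over 7. Asking also for an absolute log2 change of at least 1 gave 26, 5 and 22 calls on the 3 days and 17, 6 and 17 between days. At that cutoff the share over all tested was not computed. Keeping only the 89 members that overlap no other gene gave 15, 5 and 17 on the 3 days and 14, 6 and 13 between days. Both settings count fewer members by construction. At an adjusted p under 0.05 alone, all tested gave 18.2%, 2.15% and 13.6% on the 3 days and 11.4%, 4.5% and 10.4% between days. The 100 most counted members gave 29 calls at day 7 and 9 for day 28 over 14. Without an expression filter 27 were called at day 14, 35 for day 28 over 14 and 51 for day 28 over 7. DESeq2 called 64, 13 and 44 on the 3 days and 63, 23 and 44 between days, and a fit of only the groups compared called 28 for day 14 over 7. Leaving out 1 library gave 28 to 63, 0 to 11 and 26 to 43 calls on the 3 days and 22 to 47, 4 to 18 and 16 to 43 between days. The summed CPM of all members differed from control by −873, 264 and −164 CPM on the 3 days. At day 7 the difference was −54.7 CPM with TMM-scaled library sizes, 69.5 CPM without the most abundant member, −2035 CPM over members that overlap no other gene and −1208 to −402 CPM with 1 library left out, against 95.6 to 469 CPM at day 14 and −498 to 40.8 CPM at day 28. The cause of these changes was not tested unless the setting itself removes members or libraries.

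With the replicate number as a block 56, 10 and 46 members were called on the 3 days and 54, 17 and 40 between days. The labels do not say that the numbers pair libraries, so the block was not used in the main analysis. Deviations of same-numbered libraries correlated at −0.03 to 0.13 (median 0.03, 18 pairs), and those of differently numbered ones at −0.17 to 0.11 (median −0.02, 36 pairs). Of 90 named calls, 54 held with any 1 library left out, 53 held in every alternative run on them and 0 reversed. Ranking by mean CPM over the groups picked the same 200 members.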

Other observations

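The lists of known long non-coding RNAs held 6 tested genes that were too low in count to be members, and these are given as values. Mir155hg, the host gene of a microRNA of activated immune cells, had 169 counts over all libraries and was higher at day 7 by 2.22 (edgeR's adjusted p = 0.025) and at day 28 by 2.68 (adjusted p = 0.0093) on the log2 scale, with 1.92 at day 14 (adjusted p = 0.16). The snoRNA host Dancr had 1005 counts and a day-7 change of −0.91 (adjusted p = 0.016), and Ftx, a regulator of Xist in mouse, had 1087 counts and a day-7 change of −0.78 (adjusted p = 0.039). Miat had 118 counts and a day-28 change of −3.69 (adjusted p = 0.025). Snhg4 and Jpx passed on none of the 3 days.

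Of 129 RefSeq promoters matched to members, 12.4% held a TATA box match, 41.1% a CCAAT box match, 27.1% a GC box match and 8.53% an AP-1 match, beside the shares of all listed promoters given with the first promoter. The promoters of 1 member can overlap, so they are not independent.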
